A study of Mus musculus with 12 samples.

Results

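The 6 control libraries of a study of mouse osteoclasts, 3 labelled female and 3 labelled male, were compared with each other. They are 6 of the 12 libraries of the series and were chosen by the labels for sex and genotype, with no use of measured values. The other 6 libraries carry the genotype label Per2 knockout, again 3 of each sex. In every group bone marrow monocytes of mice aged 8 to 12 weeks were driven to osteoclasts over 4 days with the cytokines M-CSF and RANKL, and each group has 1 library from each of 3 labelled batches. The control genotype is labelled only Control: the sources used here name neither its strain nor its alleles, nor any Cre. Library names write the knockout as cKO, and the series title has PER1 but the samples are labelled Per2, which was followed. The labels call the replicates biological without stating 1 mouse for each, and p-values therefore reflect only how far these libraries spread. Autosomal genes with at least 1 FPKM (fragments scaled to gene length and library size) in at least 3 of the 12 libraries were compared, 11673 of the 55806 genes in the table. Sex-linked and mitochondrial genes were left out of the comparison. Summed levels of a gene list, in contrast, cover all its members in the table, including X-linked members and members under this filter.

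Osteoclasts are the multinucleated cells that resorb bone. They form when RANKL binds its receptor RANK on monocytes and macrophages kept alive by M-CSF, which induces the transcription factor NFATc1, fusion of the precursors, and then the acid and proteases that dissolve bone. RANKL also induces a little interferon beta, whose receptor signals to interferon-stimulated genes and restrains osteoclast formation.

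Per2, a repressor of the circadian clock, was 0.331, 0.53 and 0.368 FPKM in the female controls and 0.579, 0.721 and 0.701 FPKM in the male controls. In the libraries labelled knockout it was 0.258, 0.204 and 0.589 FPKM in females and 0.466, 0.39 and 0.23 FPKM in males. The control groups did not overlap, with a female to male ratio of means of 0.614 (p = 0.1 in an exact permutation test, two-sided, and no smaller p is possible with 3 and 3 libraries). The library labelled female knockout replicate 3 lay above each female control, against its label. Per1, a related repressor, was 2.57, 2.91 and 3.1 FPKM in the female controls and 4.38, 3.82 and 4.98 FPKM in the male controls (log2 difference −0.48 ± 0.10 SE, adjusted p = 0.00117). All 3 female libraries were below all 3 male libraries.

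The control libraries held 13888150 to 17762190 reads assigned to genes. Replicates correlated at r = 0.986 to 0.991 and pairs of opposite sex at 0.905 to 0.922, over the tested genes. Xist was 53.2 to 56.1 FPKM in the female and at most 0.00347 FPKM in the male controls, and the 4 Y-linked genes were at 0 in the female controls. Mitochondrial genes took 2.82 to 3.12% of the reads in female controls and 1.52 to 1.70% in male controls. Male control replicate 3 stood somewhat apart from its group, at 29.07 on the first principal component against 22.02 and 23.30. Divided by the denominator that the FPKM values imply, the assigned reads came to 0.936 to 0.948 in female and 1.075 to 1.105 in male controls. The choice of scaling moved the typical gene by different amounts. Its median log2 difference was 0.17 with assigned reads as the denominator, 0.28 when libraries were rescaled on nuclear protein-coding genes and 0.09 with quantile normalization, but 0.004 with median-ratio rescaling and 0.023 with voom on the recovered reads. The first 3 of these are called the 3 scalings below, in that order. Named genes and lists whose direction turned with them are marked, and a turn is read against these shifts of the typical gene.

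Differences are given as female minus male on the log2(FPKM + 1) scale, which understates the change of genes at low levels. A gene was called at a Benjamini-Hochberg adjusted p under 0.05 in limma, a linear model of all genes, fitted to the 12 libraries. Of the tested genes 60.3% were called. Of all tested, 3425 (29.3%) were higher and 3615 (31%) lower in female controls, and the median difference was 0.001. The higher share of calls was 48.7% here, 69.2% with assigned reads as the denominator, 77.3% after the nuclear protein-coding rescaling and 60.6% with quantile normalization. Large differences lay on the lower side. Called genes that were lower by at least 1 numbered 822 (7.04% of those tested), and 165 (1.41%) were higher by at least 1. At a difference of at least 2, 257 (2.2%) were lower and 4 (0.0343%) higher, and at 4, 47 (0.403%) were lower and 0 higher. A count in any gene list below is read against these shares. The control groups did not overlap for 32% of tested genes with females higher and for 32.9% with females lower. Lack of overlap alone therefore says little about a gene. In bulk cultures fewer cells of a type and less RNA per cell cannot be told apart.

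**Figure D1:**
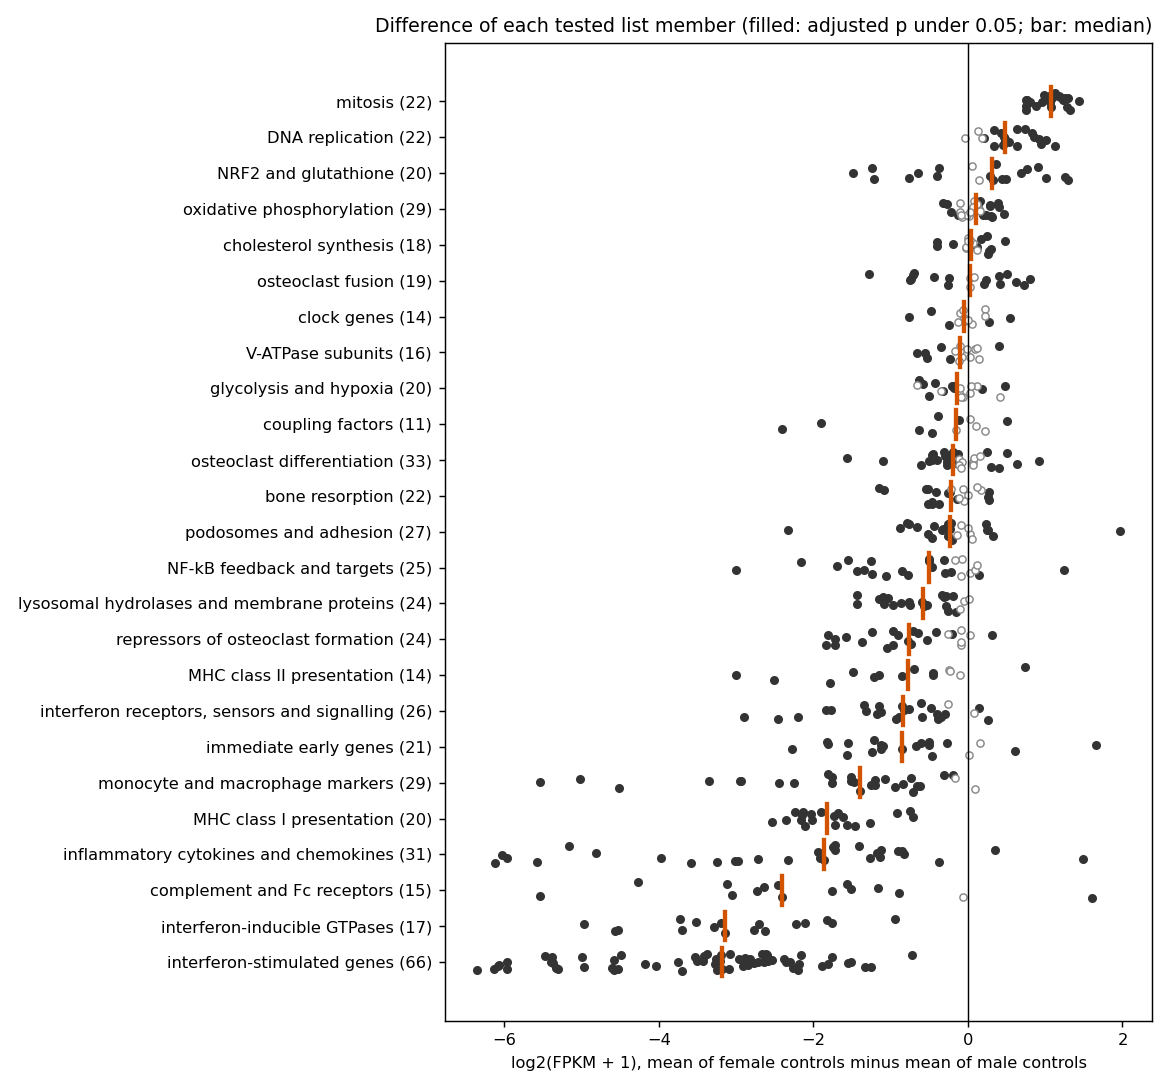
Difference of each tested member of 25 gene lists (rows, with the number tested) in log2(FPKM + 1), female minus male controls. Filled points passed the threshold, open points did not, and the bar is the list's median. The interferon-stimulated and interferon-inducible GTPase lists lie far to the left and the mitosis list to the right. The osteoclast differentiation, fusion and resorption lists lie around 0. The interferon receptor and signalling list (median −0.84) and the repressors of osteoclast formation (−0.76) lie between, on the left.

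Of the 66 tested genes of the interferon-stimulated list, 66 were lower in female controls, with differences from −6.36 to −0.72 and a median of −3.19, against a median of 0.001 over all genes. Their summed level was 1201 to 1461 FPKM in female and 13050.1 to 15763 FPKM in male controls. Only 2 of the 66 were under 1 FPKM in all 3 female controls, and without these the count was 64 of 64 with a median of −3.14. All 66 were called lower under each scaling, filter, pseudocount and left-out control library tried.

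Irf7, the transcription factor that amplifies interferon production, was 13.1, 12.3 and 16.6 FPKM in the female controls and 574, 603 and 678 FPKM in the male controls (chromosome 7, log2 difference −5.38 ± 0.13 SE, adjusted p = 1.34e-10). The male mean was 44.2 times the female mean. Isg15, a ubiquitin-like protein that is attached to other proteins during the response, was 15.4, 19.9 and 32 FPKM in the female controls and 876, 1009.7 and 963 FPKM in the male controls (chromosome 4, log2 difference −5.40 ± 0.21 SE, adjusted p = 2.79e-09). The spread within each sex was small beside the gap between them. Ifit3, a binding partner of other IFIT proteins that restrict viral RNA, was 9.07, 7.88 and 9.66 FPKM in the female controls and 585, 665 and 758 FPKM in the male controls (chromosome 19, log2 difference −6.08 ± 0.14 SE, adjusted p = 1.34e-10), and Ifit2 of the same family was 4.52, 4.74 and 6.59 FPKM in the female controls and 397, 431 and 485 FPKM in the male controls (−6.13). Rsad2, the antiviral enzyme viperin, was 2.76, 3.97 and 5.29 FPKM in the female controls and 267, 321 and 332 FPKM in the male controls (chromosome 12, −5.97). For each of these genes the highest female library was far below the lowest male library. Lack of overlap was also a condition for naming the largest falls. The 15 largest falls of all named genes also held Ifit1bl1 (−6.36), Ifit3b (−6.07), Ms4a4c (−5.96), Oasl1 (−5.47), Slfn1 (−5.38) and Slfn4 (−5.59). Near-identical copies make the split of reads between Ifit3 and Ifit3b, and among the Slfn, Oas and Gbp genes, uncertain.

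Bst2, a membrane protein that tethers budding virus, differed less, at 119, 108 and 132 FPKM in the female controls and 1309, 1412 and 1374 FPKM in the male controls (log2 difference −3.50 ± 0.082 SE, adjusted p = 1.34e-10). Ifih1, the RNA sensor MDA5, was 2.72, 3.07 and 3.14 FPKM in the female controls and 31, 32.9 and 34 FPKM in the male controls (log2 difference −3.08 ± 0.061 SE, adjusted p = 7.46e-11), and Oas2, which makes the activator of RNase L, was 7.1, 6.33 and 7.71 FPKM in the female controls and 44.9, 37.4 and 40.3 FPKM in the male controls (log2 difference −2.38 ± 0.091 SE, adjusted p = 2.35e-09). Stat2 and Irf9, which carry the receptor's signal, differed by −3.25 and −1.25.

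The promoters of the interferon-stimulated genes were searched for the core of the interferon-stimulated response element, written here as GAAA, any 2 bases and GAAA again, on both strands (TTTC for GAAA on the other), in the 250 bases before and 50 after each start. It was found in 26 of 68 windows of the list (38.2%), in 9 of 12 windows of the interferon-inducible GTPases (75%) and in 360 of 10599 windows of all tested autosomal genes (3.4%). Some genes had several windows and others none. By gene, the core was found in 23 of 53 list members with a window (43.4%), 9 of 11 GTPases (81.8%) and 343 of 8359 tested genes (4.1%). Of the windows of genes lower by at least 2, 63 of 228 (27.6%) held it, and of those of genes higher by at least 1, 4 of 130 (3.08%) held it. These shares describe the windows, and a match is not a binding site. The set of genes lower by at least 2 includes members of both interferon lists, so the shares are not independent. The stretches around the matches of 5 genes are printed 5′ to 3′ on the gene's strand, with the matches in capitals, since these genes span the large falls described above. They come from RefSeq on build GRCm38.p6: Isg15 is chr4:156200860-156200911 on the minus strand, Ifit3 chr19:34583358-34583431 on the plus strand, Rsad2 chr12:26456548-26456587 on the minus strand, Cxcl10 chr5:92349078-92349117 on the minus strand and Gbp2 chr3:142620589-142620628 on the plus strand.
Isg15: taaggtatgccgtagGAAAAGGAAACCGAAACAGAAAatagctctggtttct
Ifit3: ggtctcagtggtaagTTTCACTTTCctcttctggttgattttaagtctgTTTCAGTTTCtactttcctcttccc
Rsad2: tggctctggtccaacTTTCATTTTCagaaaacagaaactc
Cxcl10: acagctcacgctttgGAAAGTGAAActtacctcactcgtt
Gbp2: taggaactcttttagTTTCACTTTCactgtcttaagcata
Isg15 holds 3 matches that overlap each other, the first beginning 78 bases before the start, and Ifit3 holds 2 on the other strand. The stretch of Ifit3b has the same 74 bases as that of Ifit3.

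Interferon beta itself (Ifnb1, chromosome 4) had 0 reads in each of the 3 female controls and 49, 40 and 42 reads in the male controls, or 3.96, 3.41 and 3.48 FPKM. Against a floor of 3 reads in each female library, the male level was at least 14.8-fold higher, a bound that covers counting error only. Ifnb1 passed the filter on low values through libraries in which it was high. The other 20 type I and related interferon genes in the table had 0 to 5 reads in total in any of the 12 libraries, so their levels were not detectable at this depth. Of 26 tested receptors, sensors and signalling genes, 22 were lower and 2 higher in female controls (median −0.84). Of these 2 were under 1 FPKM in all female controls, and without them 20 of 24 were lower (median −0.80). The receptor chains Ifnar1 and Ifnar2 differed by −0.61 and −0.89. The endosomal sensor of DNA, Tlr9, was 2.36, 2.38 and 2.81 FPKM in the female controls and 22.2, 24.1 and 29.7 FPKM in the male controls (−2.90), and Tlr3, which senses double-stranded RNA, differed by −2.46. Traf3 and Mavs, a signalling ligase and the adaptor of the RNA sensors, were higher by 0.26 and 0.15. The call of Mavs (adjusted p = 0.047) was lost when the labelled batch was a replicate block (adjusted p = 0.0573) and without any library other than male control replicate 1 or 2 (adjusted p = 0.0554 to 0.181). Socs1, an inhibitor of the receptor's kinases, was 1.03, 1.1 and 1.27 FPKM in the female controls and 6.25, 7.17 and 6.53 FPKM in the male controls (log2 difference −1.84 ± 0.085 SE, adjusted p = 1.07e-08).

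The interferon-inducible GTPases, which attack the vacuoles of pathogens, were lower in female controls for 17 of 17 tested genes (median −3.15), of which 5 were under 1 FPKM in all female controls, and without these for 12 of 12 (median −3.24). Gbp2 was 4.33, 4.57 and 6.29 FPKM in the female controls and 128, 149 and 150.2 FPKM in the male controls (chromosome 3, log2 difference −4.57 ± 0.13 SE, adjusted p = 2.92e-10). Antigen presentation on MHC class I was lower for 20 of 20 genes (median −1.82), 1 of them under 1 FPKM in all female controls, and for 19 of 19 without it (median −1.74). Its members included the light chain B2m, 1638, 1609 and 1686 FPKM in the female controls and 4769, 5371 and 6258 FPKM in the male controls (−1.72), the peptide transporter Tap1 (−2.24) and the immunoproteasome subunit Psmb9 (−2.03). Class II presentation was lower for 10 of 14 genes and higher for 1 (median −0.78). H2-Ab1, a class II chain, was 43.5, 37.4 and 48.4 FPKM in the female controls and 114, 126 and 128 FPKM in the male controls (−1.49), and Cd40 and Cd86, which costimulate T cells, differed by −3.00 and −2.51. Ciita, the activator of class II genes, did not pass, at 1.57, 1.13 and 1.49 FPKM in the female controls and 1.55, 1.99 and 1.89 FPKM in the male controls (adjusted p = 0.0998).

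Cytokines and chemokines were lower in female controls for 29 of 31 genes and higher for 2 (median −1.87), and 9 of the 31 were under 1 FPKM in all female controls, without which 20 of 22 were lower (median −1.74). Cxcl10, which draws T cells, was 3.61, 3.49 and 5.78 FPKM in the female controls and 304, 359.6 and 309 FPKM in the male controls (chromosome 5, log2 difference −5.96 ± 0.19 SE, adjusted p = 7.24e-10). Ccl2, which draws monocytes, was 1.1, 2.58 and 3.08 FPKM in the female controls and 145, 159 and 141 FPKM in the male controls (chromosome 11, log2 difference −5.58 ± 0.29 SE, adjusted p = 3.06e-08), with its neighbours in the family Ccl7 and Ccl12 at −6.13 and −6.02. Ccl5 was 18.6, 23 and 21.3 FPKM in the female controls and 504, 610.4 and 762 FPKM in the male controls (−4.82). Tnf, an inflammatory cytokine that also promotes osteoclast formation, differed by less, at 7.94, 7.63 and 8.14 FPKM in the female controls and 15.6, 15.6 and 14 FPKM in the male controls (−0.85). The 2 higher genes were Cxcl14, a chemokine, at 12.9, 13.3 and 11.3 FPKM in the female controls and 2.92, 3.36 and 5.45 FPKM in the male controls (log2 difference 1.49 ± 0.16 SE, adjusted p = 1.01e-05), and Ccl9, which osteoclasts make in large amounts, at 485, 514 and 498 FPKM in the female controls and 389.8, 405 and 381 FPKM in the male controls (0.35). Complement and Fc receptor genes were lower for 13 of 15 and higher for 1 (median −2.41), and of these 2 were under 1 FPKM in all female controls, without which 11 of 13 were lower (median −2.41). Fcgr1, the high-affinity IgG receptor, was 5.58, 6.01 and 9.27 FPKM in the female controls and 334, 354 and 404 FPKM in the male controls (chromosome 3, log2 difference −5.55 ± 0.16 SE, adjusted p = 3.38e-10). C1qb, a chain of the first complement component, was 129.8, 122 and 136 FPKM in the female controls and 809, 749 and 873 FPKM in the male controls (log2 difference −2.64 ± 0.081 SE, adjusted p = 5.02e-10).

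Markers of monocytes and macrophages were lower in female controls for 27 of 29 tested genes and higher for none, with a median of −1.39 and a summed level of 8497 to 10136 FPKM in female and 16576 to 20574 FPKM in male controls. With rescaling to nuclear protein-coding genes or quantile normalization 25 were lower and 2 higher. Adgre1, which encodes the antigen F4/80, was 82.5, 87.5 and 80.1 FPKM in the female controls and 417, 390.1 and 394 FPKM in the male controls (chromosome 17, log2 difference −2.25 ± 0.073 SE, adjusted p = 7.1e-10), a difference in which no library overlapped the other group. Aif1, an actin-bundling protein of macrophages, was 22.8, 26.9 and 26.8 FPKM in the female controls and 193, 182 and 232 FPKM in the male controls (log2 difference −2.93 ± 0.10 SE, adjusted p = 1.06e-09). Mertk, a receptor for dying cells, differed by −1.76, the lipopolysaccharide co-receptor Cd14 by −1.81 and the fractalkine receptor Cx3cr1 by −0.62. The genes furthest apart in the list, Fcgr1, Ly6a (−5.02) and Siglec1 (−4.51), are also known to respond to interferon. Csf1r, the M-CSF receptor, was 194, 197 and 194 FPKM in the female controls and 225, 226 and 217 FPKM in the male controls (−0.19, adjusted p = 0.000436), and its direction turned with the scaling, to 0.02, 0.15 and 0.14 with assigned reads, nuclear protein-coding genes and quantile normalization. The 2 markers that did not pass were Cd36 and Clec7a, and Clec7a was called higher with nuclear protein-coding genes, quantile normalization and without male control replicate 3 (0.42, 0.44 and 0.31).

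**Figure D2:**
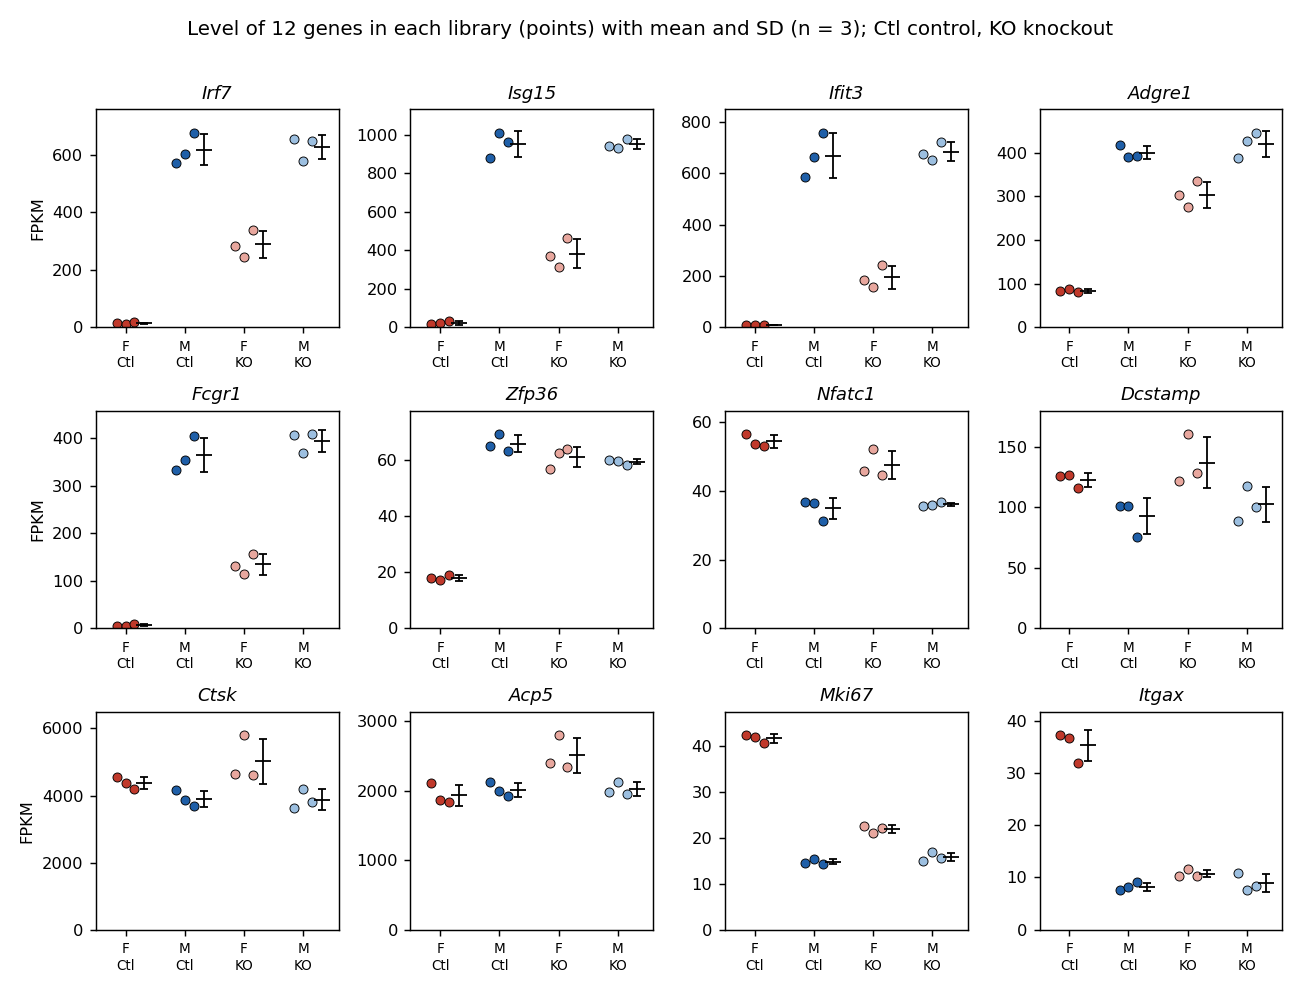
Levels of 12 genes in FPKM (linear axes from 0) in the 12 libraries, with the group mean and SD (n = 3) beside the points. The interferon and macrophage genes Irf7, Isg15, Ifit3, Adgre1 and Fcgr1 and the repressor Zfp36 are lowest in female controls, Nfatc1, Mki67 and Itgax highest there, and Ctsk and Acp5 differ little between the control groups.

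The lists of the osteoclast itself had medians nearer to 0, with members in both directions. Cathepsin K (Ctsk), the protease that cleaves bone collagen, stood at 4539, 4386 and 4195 FPKM in the female controls and 4165, 3870.1 and 3689 FPKM in the male controls (chromosome 3, log2 difference 0.16 ± 0.091 SE, adjusted p = 0.143). Acp5, tartrate-resistant acid phosphatase, was 2108, 1861 and 1831 FPKM in the female controls and 2123, 1989 and 1925 FPKM in the male controls (chromosome 9, log2 difference −0.059 ± 0.078 SE, adjusted p = 0.537). Mmp9, a matrix metalloproteinase, was 2464, 2325 and 2209 FPKM in the female controls and 2625, 2472 and 2184 FPKM in the male controls (chromosome 2, log2 difference −0.055 ± 0.081 SE, adjusted p = 0.586). None of these passed, although each female Ctsk value lay above each male one, and the marker enzymes of the labelled cell type were abundant in both sexes. Ctsk was called higher in females under 3 scalings (0.38, 0.50 and 0.43 with assigned reads, nuclear protein-coding genes and quantile normalization), and Acp5 (0.15, 0.28 and 0.25) and Mmp9 (0.16, 0.29 and 0.33) turned direction under the same 3, Acp5 being called higher in the latter pair (adjusted p = 0.0121 and 0.0437) and Mmp9 likewise (adjusted p = 0.0156 and 0.00242). The beta 3 integrin Itgb3 (65, 64.5 and 66.2 FPKM in the female controls and 68.9, 61.9 and 65 FPKM in the male controls), the fusion protein Ocstamp (42.8, 39.6 and 39.8 FPKM in the female controls and 42.9, 42.2 and 35.7 FPKM in the male controls) and the calcitonin receptor Calcr (10.4, 11 and 8.94 FPKM in the female controls and 11.7, 8.14 and 9.21 FPKM in the male controls) overlapped between the groups and did not pass. Itgb3 (0.21, 0.34 and 0.33) and Ocstamp (0.23, 0.35 and 0.26) were called higher under the 3 scalings, and Calcr (0.37) with nuclear protein-coding genes. The median of all genes was 0.17, 0.28 and 0.09 under the 3 scalings. Acp5 and Mmp9 lay near this median with assigned reads and nuclear protein-coding genes, and above it with quantile normalization.

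Among 33 tested genes of osteoclast differentiation 19 were lower and 6 higher in female controls, with a median of −0.19, and 8, 5 and 8 were lower and 9, 18 and 9 higher with assigned reads, nuclear protein-coding genes and quantile normalization, under which the median was 0.019, 0.14 and 0.031. Relative to the shift of all genes these medians were −0.15, −0.14 and −0.056. Nfatc1, the master transcription factor, was higher in female controls at 56.6, 53.8 and 53.1 FPKM in the female controls and 36.9, 36.6 and 31.4 FPKM in the male controls (chromosome 18, log2 difference 0.63 ± 0.069 SE, adjusted p = 1.27e-05). Prdm1, the repressor Blimp1 that silences inhibitors of osteoclast formation, was 21.4, 22.1 and 19.9 FPKM in the female controls and 10.7, 11.2 and 10.1 FPKM in the male controls (chromosome 10, log2 difference 0.92 ± 0.071 SE, adjusted p = 6.69e-07). For both genes each female library lay above each male library. Fcer1g, the adaptor that costimulates RANK, was lower at 253, 286 and 259 FPKM in the female controls and 767, 777 and 817 FPKM in the male controls (chromosome 1, log2 difference −1.56 ± 0.061 SE, adjusted p = 2.75e-09), and Jun, an AP-1 subunit, was 30.6, 29 and 27.3 FPKM in the female controls and 63.5, 64.5 and 61.4 FPKM in the male controls (−1.10). Tnfrsf11a, which encodes RANK, was 34.1, 34.7 and 33.5 FPKM in the female controls and 38.8, 38.7 and 35.1 FPKM in the male controls (adjusted p = 0.0443, and 0.0582 with the replicate block), and its difference of −0.13 missed the threshold without any one of 5 of the 6 libraries (adjusted p 0.0645 to 0.138, male control replicate 3 being the exception) and turned to 0.08, 0.20 and 0.11 under the 3 scalings.

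Fusion genes were split, with 8 higher and 8 lower among 19 (median 0.027), and 11 higher and 6 lower under each of the 3 scalings. Dcstamp, the membrane protein needed for fusion, was 126, 127 and 116 FPKM in the female controls and 101, 101 and 75.9 FPKM in the male controls (chromosome 15, log2 difference 0.41 ± 0.14 SE, adjusted p = 0.0214), and its call was lost without female control replicate 1 or 2 or male control replicate 3 (adjusted p = 0.0566, 0.0598 and 0.0877). Dock5, an activator of Rac, was 28.2, 29.2 and 26.7 FPKM in the female controls and 18.8, 18.5 and 16.2 FPKM in the male controls (0.62). Atp6v0d2, a proton pump subunit that also takes part in fusion, was 265, 259 and 222 FPKM in the female controls and 205, 188 and 171 FPKM in the male controls (0.40), and the tetraspanin Cd9 was 174, 176 and 160.0 FPKM in the female controls and 89.5, 96.5 and 105 FPKM in the male controls (0.80). These 4 were higher in female controls with no overlap between the groups, which also held for 32% of all tested genes. Cd47 and its receptor Sirpa were lower, at 31, 31.3 and 32 FPKM in the female controls and 74.4, 77 and 81.5 FPKM in the male controls for Cd47 (log2 difference −1.28 ± 0.053 SE, adjusted p = 4.1e-09) with a difference of −0.71 for Sirpa, and the tetraspanin Cd81 differed by −0.74.

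Of 22 tested bone resorption genes 12 were lower and 3 higher (median −0.22), with 8, 5 and 5 lower, 5, 9 and 7 higher and medians of −0.012, 0.11 and 0.058 under the 3 scalings. Relative to the shift of all genes these medians were −0.19, −0.16 and −0.029. Without female control replicate 1 or male control replicate 3 only 1 resorption gene was higher. The lysosomal cathepsins Ctsb and Ctsd led the falls, at 527, 531 and 487 FPKM in the female controls and 1151, 1138 and 1154 FPKM in the male controls for Ctsb (chromosome 14, log2 difference −1.16 ± 0.045 SE, adjusted p = 2.87e-09) and 582, 589 and 576 FPKM in the female controls and 1249.8, 1224 and 1256 FPKM in the male controls for Ctsd (chromosome 7, log2 difference −1.09 ± 0.049 SE, adjusted p = 8.11e-09). Clcn7, the chloride transporter of the resorbing membrane, differed by −0.55, and Car2, the carbonic anhydrase that supplies protons, was higher by 0.27, a call lost without female control replicate 1 or male control replicate 2 or 3 (adjusted p = 0.116, 0.0583 and 0.127). Proton pump subunits were lower for 5 and higher for 1 of 16, and for 3, 3 and 3 and 6, 10 and 10 under the 3 scalings (median −0.10, and 0.11, 0.23 and 0.25 under the 3 scalings). Of 24 lysosomal hydrolases and membrane proteins 21 were lower and none higher (median −0.58), and 14 to 15 were lower and 2 to 5 higher under the 3 scalings. Npc2, a cholesterol carrier, differed by −1.44, cathepsin L (Ctsl) by −1.44 and the membrane protein Lamp1 by −0.97.

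Repressors of osteoclast formation were lower in female controls for 18 of 24 genes and higher for 1 (median −0.76), with 17, 16 and 17 lower and 2, 5 and 2 higher under the 3 scalings. Irf8, a transcription factor of the monocyte lineage, was 8.93, 8.64 and 10.2 FPKM in the female controls and 20.8, 21.3 and 27.9 FPKM in the male controls (chromosome 8, log2 difference −1.24 ± 0.12 SE, adjusted p = 4.51e-06). Zfp36, which destabilises cytokine mRNAs, was 17.9, 17.2 and 19.1 FPKM in the female controls and 65, 69.4 and 63.4 FPKM in the male controls (chromosome 7, log2 difference −1.81 ± 0.055 SE, adjusted p = 4.62e-10). Both were lower in every female library than in any male library. The higher member was Nfkbid, an IkB family protein (0.32). Podosome and adhesion genes were lower for 17 and higher for 5 of 27, and for 10, 8 and 9 and 9, 11 and 11 under the 3 scalings (median −0.24, and −0.023, 0.10 and 0.0057 under the 3 scalings), from the actin bundler Fscn1 (−2.33) to the integrin Itgax (1.97). Coupling factors, by which osteoclasts signal to osteoblasts, were lower for 6 and higher for 1 of 11, and for 3, 3 and 4 and 3, 4 and 2 under the 3 scalings (median −0.15, which turned to 0.067 with rescaling to nuclear protein-coding genes). Complement C3 differed by −2.41 and Cxcl16 by −1.90, while Pdgfb, a growth factor for vessels and precursors, was higher by 0.50.

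**Figure D3:**
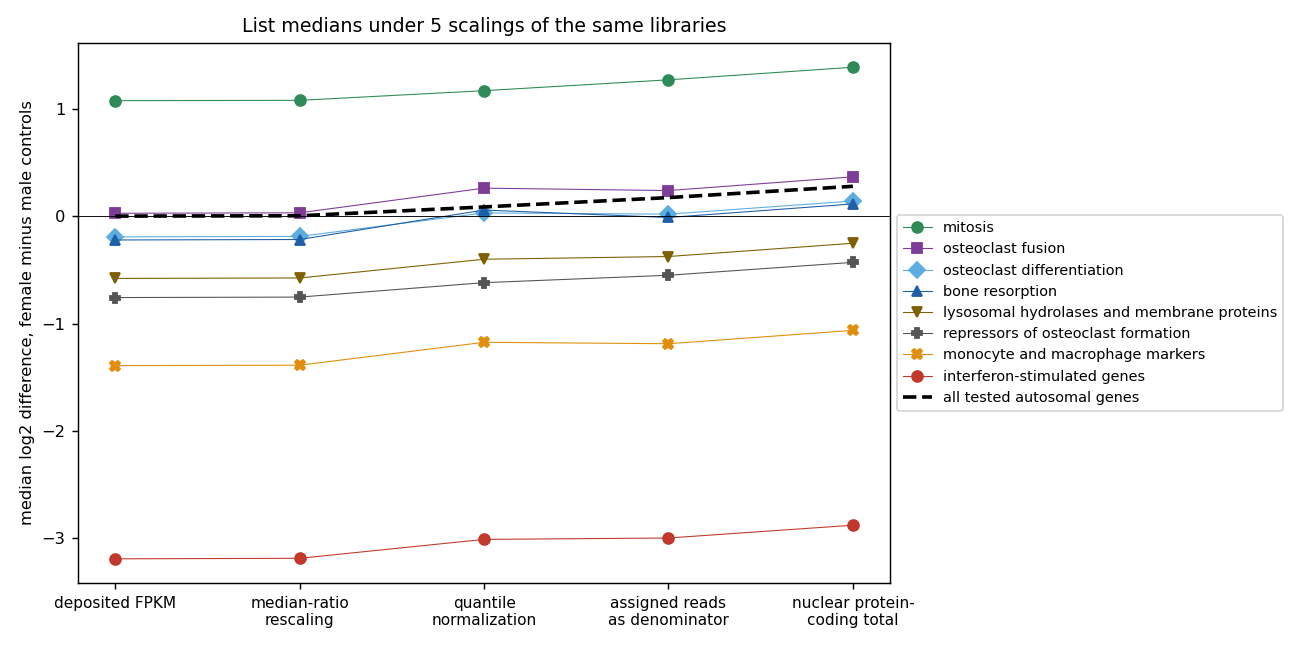
Median log2 difference (female minus male controls) of 8 lists and of all tested autosomal genes (dashed) under 5 scalings. Mitosis stays above 1 and the interferon and macrophage lists stay below −1, while differentiation and resorption cross 0 with the shift of all genes.

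Genes of cell division were higher in female controls. All 22 mitosis genes were higher (median 1.08), and so were all that could be tested (21 with the stricter filter) under each scaling, filter, pseudocount and left-out control library tried, with a summed level of 507 to 508 FPKM in female and 221 to 239 FPKM in male controls. Mki67, the proliferation antigen, was 42.3, 41.9 and 40.5 FPKM in the female controls and 14.5, 15.4 and 14.3 FPKM in the male controls (chromosome 7, log2 difference 1.43 ± 0.05 SE, adjusted p = 1.03e-09). Cdk1, the kinase that starts mitosis, was 26.6, 26.8 and 26.9 FPKM in the female controls and 11.6, 11.2 and 12.3 FPKM in the male controls (chromosome 10, log2 difference 1.13 ± 0.053 SE, adjusted p = 1.12e-08), and Cdc20, which activates the anaphase ligase, was 34.6, 32.3 and 35.1 FPKM in the female controls and 14.7, 18.5 and 14.5 FPKM in the male controls (chromosome 4, 1.06). Within each sex the 3 libraries were close together. Genes of DNA replication were higher for 19 of 22 with none lower, by less (median 0.48). The ribonucleotide reductase subunit Rrm2 differed by 1.01 and the helicase subunit Mcm3 by 0.48, while Pcna, the polymerase clamp, differed by 0.20.

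The promoters of the mitosis genes were searched on both strands for the letters TTTGAA, the core of the cell cycle homology region. The CCAAT box was searched in the same windows, also on both strands. Both elements were found in 14 of 19 windows of the mitosis list (73.7%) and 2 of 18 windows of the replication list (11.1%). By gene, these were 13 of 18 mitosis genes (72.2%) and 2 of 16 replication genes (12.5%) with a window. The 2 elements were found together in 24 of 130 windows of genes higher by at least 1 (18.5%) and 524 of 10599 windows of all tested autosomal genes (4.94%). Mitosis genes that were higher by at least 1 also belong to the former of these sets, so the shares are not independent. The stretches of 2 genes that hold both are printed 5′ to 3′ on the gene's strand from the same RefSeq table, with matches to either in capitals, as examples of the genes that were higher in female controls. Mki67 is chr7:135716457-135716582 on the minus strand and Cdc20 chr4:118437344-118437411 on the minus strand on build GRCm38.p6. No match shares bases with another in these stretches.
Mki67: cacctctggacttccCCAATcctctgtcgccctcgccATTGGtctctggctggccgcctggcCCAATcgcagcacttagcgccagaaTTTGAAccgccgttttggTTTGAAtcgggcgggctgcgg
Cdc20: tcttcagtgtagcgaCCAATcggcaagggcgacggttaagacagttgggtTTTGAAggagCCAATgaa
In Mki67, 2 matches to the region begin 116 and 98 bases before the start, after 3 CCAAT boxes. In Cdc20 it begins 18 bases before the start, between 2 CCAAT boxes.

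The largest rises were small beside the largest falls. Mmp12, the macrophage elastase, was 184, 190.2 and 152 FPKM in the female controls and 25.5, 34.3 and 59.8 FPKM in the male controls (chromosome 9, log2 difference 2.19 ± 0.28 SE, adjusted p = 3.73e-05). Itgax, which encodes CD11c, was 37.2, 36.7 and 31.9 FPKM in the female controls and 7.58, 8.1 and 9.08 FPKM in the male controls (chromosome 7, log2 difference 1.97 ± 0.11 SE, adjusted p = 6.5e-08). Mycl, a MYC family factor, was 8.75, 9.75 and 10.4 FPKM in the female controls and 2.44, 2.03 and 1.51 FPKM in the male controls (chromosome 4, log2 difference 1.84 ± 0.15 SE, adjusted p = 8.39e-07), and Egr2, an early growth response factor, was 14.9, 16.6 and 14.8 FPKM in the female controls and 3.31, 3.92 and 5.73 FPKM in the male controls (chromosome 10, log2 difference 1.65 ± 0.15 SE, adjusted p = 2.58e-06). No overlap between the groups was a condition for naming the largest rises, so it is no separate result for these genes. Between Itgax and Egr2 in size lay also Serinc2, a membrane protein (1.88), and Emp2, another (1.79). Dnph1, a nucleotide hydrolase (1.58), Polr3g, an RNA polymerase III subunit (1.58), Gpc1, a heparan sulfate proteoglycan (1.49), and Cad, which starts pyrimidine synthesis (1.38), followed. Sumo2, a ubiquitin-like modifier, had the largest difference of the rises but is uncertain, since it has near-identical pseudogene copies. It was 67.5, 53.9 and 71.9 FPKM in the female controls and 17.9, 5.82 and 18 FPKM in the male controls (log2 difference 2.27 ± 0.77 SE, adjusted p = 0.0247), and its call was lost without female control replicate 1 or 3 or male control replicate 2 (adjusted p = 0.058, 0.0625 and 0.096).

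Immediate early genes, which respond to signals within minutes, were lower for 17 and higher for 2 of 21 (median −0.86). Egr1 was 1.37, 1.41 and 1.92 FPKM in the female controls and 11.8, 11.7 and 10.7 FPKM in the male controls (chromosome 18, log2 difference −2.28 ± 0.10 SE, adjusted p = 9.17e-09), opposite to its relative Egr2. The phosphatase Dusp1 differed by −1.82 and Fos by −0.46, and the call of Fos was lost with nuclear protein-coding genes and quantile normalization (adjusted p = 0.088 and 0.155). Myc was higher by 0.61. Targets and feedback regulators of NF-kB were lower for 17 and higher for 2 of 25 (median −0.50), with 14, 12 and 14 lower and 5, 8 and 5 higher under the 3 scalings. Leaving out male control replicate 3 gave 3 higher, and male control replicate 1 or 2, or the replicate block, which ended the call of Birc3 (adjusted p = 0.0532), gave 1. Pim1, a survival kinase, differed by −2.17, whereas the inhibitor Nfkbia was 189, 189 and 208 FPKM in the female controls and 195, 199.8 and 179 FPKM in the male controls and did not pass (adjusted p = 0.681), but was called higher under the 3 scalings (0.24, 0.37 and 0.36). Malt1, a protease in NF-kB signalling, was higher at 12.5, 13.4 and 13.2 FPKM in the female controls and 5.21, 4.92 and 4.68 FPKM in the male controls (log2 difference 1.24 ± 0.051 SE, adjusted p = 3.97e-09).

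Metabolic lists had medians of −0.15 to 0.30. NRF2 and glutathione genes were split, with 11 higher and 7 lower of 20 (median 0.30). The thioredoxin reductase Txnrd1 was 96.5, 107 and 100.2 FPKM in the female controls and 44, 44.7 and 37.4 FPKM in the male controls (log2 difference 1.25 ± 0.081 SE, adjusted p = 1.58e-07) and the quinone reductase Nqo1 was higher by 1.29. The ferritin chain Fth1 was 984, 1133 and 993 FPKM in the female controls and 2776, 3077 and 2832 FPKM in the male controls (log2 difference −1.48 ± 0.061 SE, adjusted p = 3.95e-09), and Hmox1, which degrades heme, was 89.5, 98.3 and 81.6 FPKM in the female controls and 223, 229 and 189 FPKM in the male controls (−1.24), both lower in female controls. Genes of oxidative phosphorylation were higher for 11 and lower for 4 of 29 (median 0.11), with 21 to 26 higher and none lower under the 3 scalings, and 2 lower without female control replicate 3 or male control replicate 2. Cholesterol synthesis had 7 higher and 3 lower of 18 (median 0.045), and 13, 15 and 9 higher and 1, 0 and 2 lower under the 3 scalings. Without female control replicate 2 or male control replicate 2 only 4 of these genes were higher. Glycolysis had 2 higher and 8 lower of 20, and 5, 10 and 7 higher and 4, 3 and 5 lower under the 3 scalings (median −0.15, and 0.056, 0.18 and 0.062 under the 3 scalings). Clock genes were higher for 2 and lower for 3 of 14 (median −0.046, and 0.11, 0.20 and 0.032 under the 3 scalings, with 6, 7 and 3 higher). Bhlhe40, a clock repressor, was higher by 0.54, and Nfil3, another transcription factor of the clock, differed by −0.76.

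**Figure D4:**
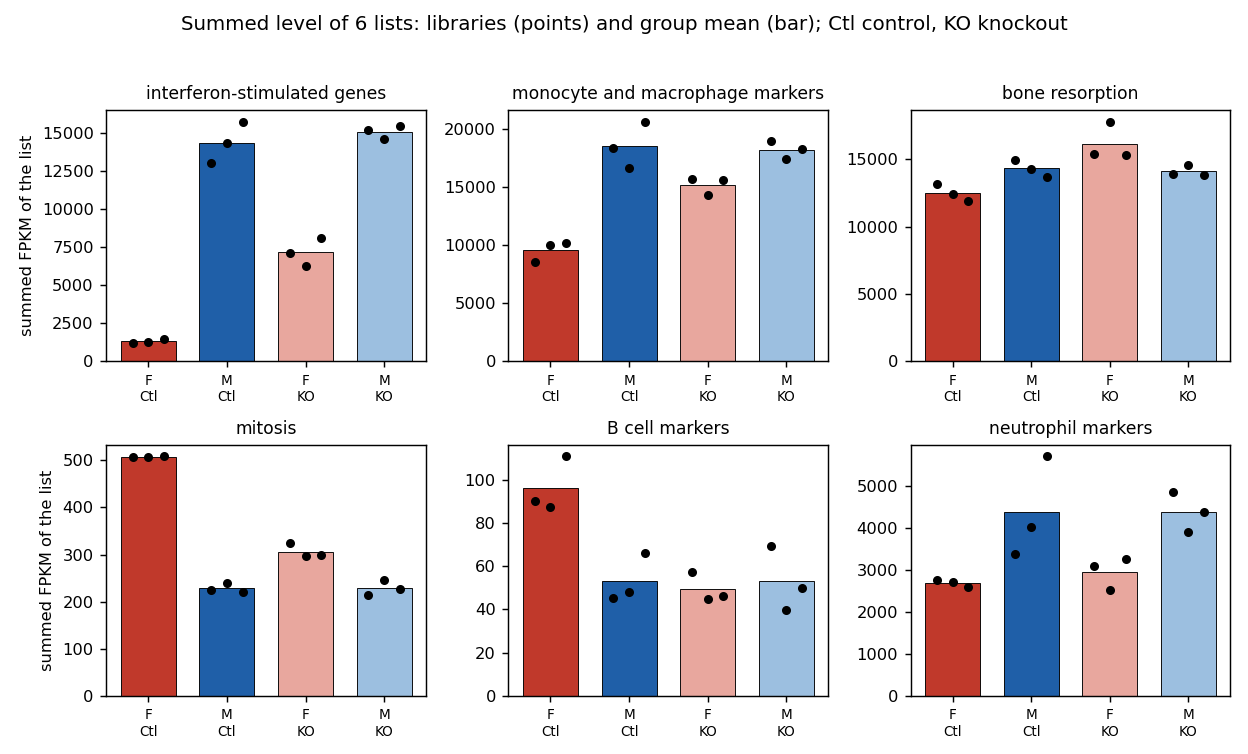
Summed FPKM of 6 lists in the 12 libraries (points) with group means (bars, from 0). Female controls hold the lowest interferon and macrophage sums and the highest mitosis and B cell sums, and the neutrophil sum is highest in male control replicate 3.

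Markers of some other cells of the marrow also differed between the groups, and their part in the differences above was not tested. The lower counts of the stromal and endothelial list and the mast cell and basophil list did not exceed the 31% of all tested genes. B cell markers were higher in female controls for 7 of 10 tested genes with none lower, with summed levels of 87.3 to 111 and 45.4 to 66.1 FPKM in female and male controls. Of these 10, 1 was under 1 FPKM in all male controls, and without it 6 of 9 were higher. Without female control replicate 3, 4 of the 10 were higher. In this list 1 marker was at 0 in all female controls. Neutrophil markers were lower for 12 of 16, with sums of 2586 to 2765 and 3391 to 5705 FPKM, the highest value being that of male control replicate 3, and Retnlg, which did not pass (adjusted p = 0.101), was called higher under the replicate block (adjusted p = 0.0468). T and NK cell markers were lower for 4 of 5, and for 3 of 4 without 1 that was under 1 FPKM in all female controls, with sums of 18.9 to 22 and 40.1 to 56.1 FPKM, and the 3 defining T cell genes Cd3d, Cd3e and Cd3g were among the members under the filter. Dendritic cell markers were lower for 6 and higher for 3 of 11, with sums of 93.3 to 100.3 and 177 to 227 FPKM. Of these 11, 1 was under 1 FPKM in all female and 1 in all male controls. Without them 6 were lower and 2 higher of 9. Mast cell and basophil sums overlapped, at 31.5 to 51.8 and 25.7 to 48.6 FPKM, with 2 of 8 lower, none higher (3 without male control replicate 3 and 4 with nuclear protein-coding genes) and 2 markers at 0 in all female and in all male controls. Of these 8 tested markers, 1 was under 1 FPKM in all male controls, and without it 2 of 7 were lower and none higher. Erythroid and megakaryocyte markers were lower for 3 of 7, at 355 to 434 and 599 to 828 FPKM. Only 1 was lower without any one of female control replicate 1 or 2 and male control replicate 3, and the median of −0.19 turned to 0.012 and 0.13 with assigned reads and nuclear protein-coding genes (1 lower and 1 higher in each). The globin gene Hba-a1 was 5.7, 4.28 and 6.97 FPKM in the female controls and 2.09, 2.44 and 5.98 FPKM in the male controls and did not pass (adjusted p = 0.0779). It was called higher with those 2 scalings, with the replicate block and without male control replicate 3 (adjusted p = 0.0249, 0.0102, 0.0408 and 0.00301). Stromal and endothelial markers were lower for 3 of 10, at 12.4 to 39.1 and 43.1 to 67.4 FPKM, with 1 marker at 0 in all male controls. Of these 10 tested markers, 1 was under 1 FPKM in all female controls, and without it 2 of 9 were lower. Without female control replicate 1, 7 of the 10 were lower, and 2 without female control replicate 3 or male control replicate 3. Stem and progenitor markers were lower for 5 and higher for 1 of 8, at 36.2 to 43.4 and 433 to 717 FPKM, a sum that is mostly Ly6a.

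The same comparison was made in the 6 libraries labelled knockout, which share none with the controls. There 1520 genes (13%) were higher and 2393 (20.5%) lower in females. Of the 7040 genes called in controls and the 3913 called in knockouts, 3044 were called in both with the same sign, 43.2% and 77.8% of the respective lists, and 135 were called in both with opposite signs. Without female knockout replicate 3, whose Per2 level went against its label, 1326 genes were higher and 2162 lower in female knockouts, a check chosen after seeing the data. Across the 11673 genes the differences correlated at r = 0.721 with a slope of 0.343 for knockouts on controls, a description over genes that share their libraries. The interferon-stimulated genes were lower in 66 of 66 in knockouts too, with a median of −0.98 in place of −3.19. The macrophage median was −0.54 in place of −1.39, that of mitosis 0.39 in place of 1.08, that of resorption 0.14 in place of −0.22 and that of the repressors −0.24 in place of −0.76.

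**Figure D5:**
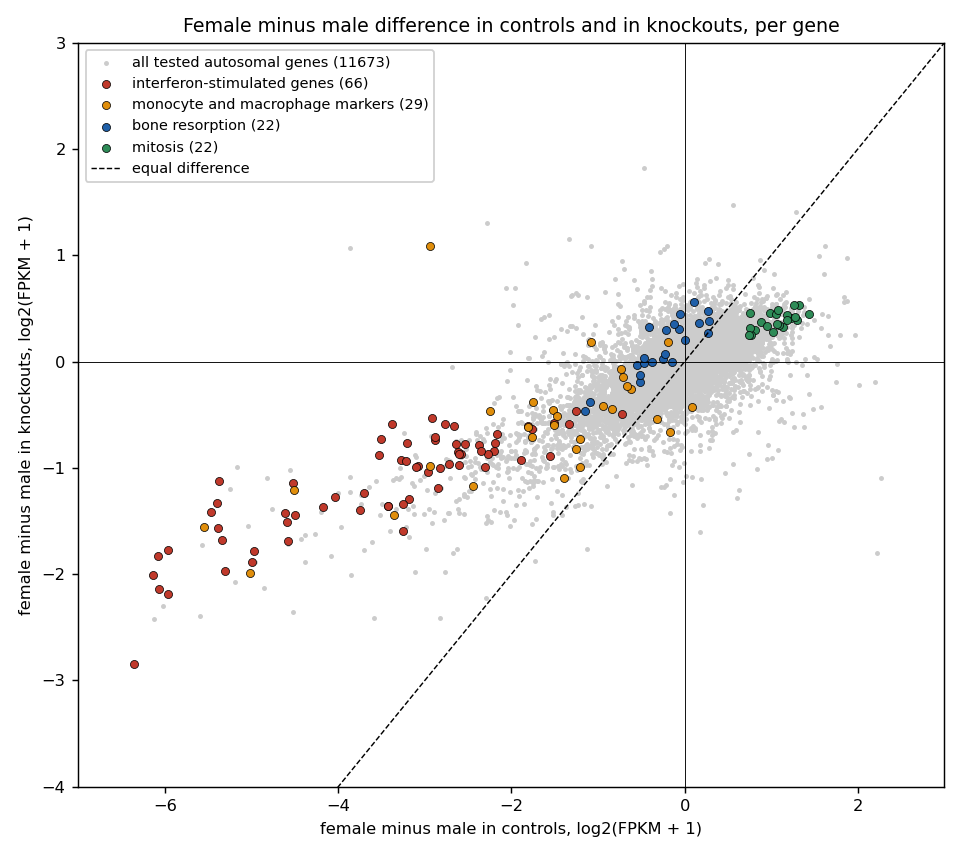
Each point is a gene, with its female minus male difference in log2(FPKM + 1) in controls (horizontal) and in knockouts (vertical). Interferon-stimulated and mitosis genes lie on the same side of 0 on both axes but nearer to 0 in knockouts, and most resorption genes lie above the dashed line of equal difference.

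The difference between the control and the knockout comparison was tested as an interaction in the same model. It passed for 1940 genes with a positive sign (16.6%) and 2112 with a negative sign (18.1%), and for 1756 and 1955 without female knockout replicate 3. All 66 interferon-stimulated genes passed with a negative sign, as did 20 of 29 macrophage markers, 15 of 22 resorption genes and 15 of 24 repressors, and all 22 mitosis genes passed with a positive sign. Without female knockout replicate 3 these counts were 65, 20, 17, 14 and 21. The resorption count fell to 12, 5 and 7 with assigned reads, nuclear protein-coding rescaling and quantile normalization, whereas those of the other 4 lists stayed within 3 of their values under these scalings. In knockouts, resorption genes were higher in females for 10 and lower for 3 of 22. Acp5 was 2395, 2799 and 2334 FPKM in female and 1988, 2132 and 1949 FPKM in male knockouts (0.31, adjusted p = 0.0117, interaction adjusted p = 0.025), but its interaction missed the threshold under the 3 scalings (adjusted p = 0.0874, 0.269 and 0.69). Irf7 was 283, 246 and 339 FPKM in female and 657, 580.4 and 648 FPKM in male knockouts (−1.13, interaction −4.25, adjusted p = 2.07e-07). The difference in Nfatc1 between the comparisons did not pass, at 46, 52.2 and 44.7 and 35.7, 36 and 36.7 FPKM in female and male knockouts (interaction 0.24, adjusted p = 0.0771), but it passed under the 3 scalings (0.34, 0.43 and 0.39, adjusted p = 0.0243, 0.0109 and 0.0161). Marco, a scavenger receptor, turned direction. It was 12, 14.4 and 16.7 FPKM in the female controls and 168, 131 and 71.6 FPKM in the male controls (−2.95), and 169.9, 186 and 163 and 76.7, 88.8 and 77.2 FPKM in female and male knockouts (1.09, interaction adjusted p = 9.31e-06). Interactions compare differences within sex labels and do not show which of the 4 groups moved. Read group by group, the interferon sum was 6262 to 8139 FPKM in female and 14606 to 15509 FPKM in male knockouts, so the female controls stood lowest and the male groups overlapped.

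Every autosome carried called genes. The share lower in female controls ran from 24% on chromosome 12 to 34.8% on chromosome 17, and the share lower by at least 2 from 0.779% on chromosome 9 to 4.18% on chromosome 19, which holds the Ifit genes. By mean level, 27% of genes under 5 FPKM were higher and 20.2% lower, while 22.9% of those over 100 FPKM were higher and 54.3% lower, with a median of −0.23.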

How the data were processed

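RNA sequencing values were read from 1 table of the series. It holds FPKM as the authors deposited it. The aligner HISAT2 2.0.5, the read counter featureCounts 1.5.0-p3 and build mm10 are named per the submitters' processing notes. Neither the strand setting nor the FPKM denominator is given there, so reads of overlapping or antisense genes may be mixed. All 12 columns were mapped by name, and 1 line with no gene was left out. The table shares 52080 gene identifiers with GENCODE M21, but 2.87% lie at the same position, so only chromosomes are given from it.

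FPKM times gene length, divided by the step of 1 read, gave whole numbers within 0.01 for 100% of values above 0, and so the read counts used for depth and for voom. Chi-square over its degrees of freedom was 4.59 to 13.7 between replicates, above sampling noise. This spread cannot show whether replicates come from different mice, and each library was treated as a separate sample.

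The log2(FPKM + 1) values, computed from the deposited FPKM, of 12102 genes with at least 1 FPKM in at least 3 libraries were fitted with limma 3.58.1 in R 4.3.3, with 4 group means, a variance trend and no block (10.95 total df). P-values are two-sided and were adjusted by Benjamini-Hochberg over all 12102 genes. The fit was checked on simulated counts in which a small set of genes changed and every gene had the same dispersion (spread beyond counting error). Those counts held no shift of whole libraries, so the check cannot show how the fit behaves under the scaling differences seen here. The labelled batch pairs the libraries. Deviations of same-batch female and male controls correlated at 0.00577, 0.0599 and −0.0152, and a batch term changed the calls and counts given beside it.

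The members and the 33 lists were chosen with earlier results of these data known. Named genes are Per2, up to 15 rises and 15 falls with no overlap between groups and at least 5 FPKM in the higher group, up to 4 members of each list by smallest p, a set always followed, and up to 5 interaction genes in each direction. Other list members named were chosen after their values were seen. Members under the filter were not tested, but they are in the summed levels, as are X-linked members. Alternatives were other pseudocounts, filters and scalings, voom, the 6 controls alone, a batch term and leaving out each control library, and for the knockouts the alternatives named beside them.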

Additional observations from a re-analysis of the deposited data

Results flagged for a closer look

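For 10 named genes the female minus male difference was itself different between controls and knockouts, by an interaction term in limma. The difference (control minus knockout, log2) was positive for Mki67 (0.99), Emp2 (1.54), Malt1 (0.93), Tsr1 (0.92), a ribosome biogenesis factor, and Mfng (1.07), a glycosyltransferase that modifies Notch. It was negative for Egr1 (−3.58), Ifih1 (−2.10), Bst2 (−2.77), Zfp36 (−1.85) and Irf7 (−4.25). Adjusted p-values were 2.07e-07 to 7.83e-06, and these genes were chosen for the smallest p. Over all tested autosomal genes 1940 differences were positive and 2112 negative. All 10 genes passed with the same sign without female knockout replicate 3 and under the 3 scalings, alternatives chosen after seeing the data.

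Egr1 turned direction. It was 1.37, 1.41 and 1.92 FPKM in female and 11.8, 11.7 and 10.7 FPKM in male controls, and 18.1, 23.6 and 23.5 FPKM in female and 8.53, 8.08 and 7.92 FPKM in male knockouts. Zfp36 was 17.9, 17.2 and 19.1 and 65, 69.4 and 63.4 FPKM in female and male controls and 57, 62.5 and 64 and 60.2, 59.8 and 58.4 FPKM in female and male knockouts, so it was low in female controls alone. Mki67 was 22.6, 20.9 and 22.2 FPKM in female and 15, 16.9 and 15.6 FPKM in male knockouts, and Malt1 6.59, 6.78 and 6.37 and 5.26, 5.25 and 4.77 FPKM.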

How the results depend on the processing

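The 66 interferon-stimulated and 25 to 27 macrophage calls stayed within 1.5 times under every alternative tried. The counts over all genes did not. With assigned reads as the denominator 5419 genes were higher, and after rescaling on nuclear protein-coding genes 6523 were higher and 1915 lower. Genes of resorption lower in female controls numbered 5 with nuclear protein-coding rescaling and 5 with quantile normalization, against 12. Those of osteoclast differentiation numbered 8 with assigned reads, 5 with nuclear protein-coding rescaling and 8 with quantile normalization, against 19. Leaving out 1 control library gave 3065 to 3205 genes higher and 3380 to 3485 lower, 11 to 13 resorption, 17 to 19 differentiation, 26 to 27 macrophage and 66 interferon-stimulated genes lower. For knockouts, by alternatives chosen after seeing the data, 3079 were higher and 1556 lower with assigned reads, 3564 and 1364 after nuclear protein-coding rescaling, and 2409 were higher with quantile normalization, against 1520 and 2393, and 1326 and 2162 without female knockout replicate 3. Differences between controls and knockouts numbered 2990 positive with assigned reads, and 3992 positive and 1261 negative after nuclear protein-coding rescaling, against 1940 and 2112, and 1756 and 1955 without that library. With the replicate block, the labelled batch as a term, 3419 were higher and 3600 lower. Of 636 tested genes named or in a list it ended the calls of Tnfrsf11a, Mavs and Birc3 (adjusted p = 0.0582, 0.0573 and 0.0532), made those of Hba-a1, Retnlg, Ngp and Cycs (0.0408, 0.0468, 0.0482 and 0.02), and changed no other call.

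Of the 167 genes chosen by the naming rule 143 kept their direction and call in every setting in which they were tested, and 152 were tested with the stricter filter. Many were chosen for large differences or small p, so this share does not carry over to other genes. Of the 636 genes named or in a list, 478, 438 and 502 kept direction and call with assigned reads, nuclear protein-coding rescaling and quantile normalization. Direction turned with assigned reads, nuclear protein-coding rescaling and quantile normalization for Acp5 (0.15, 0.28 and 0.25), Csf1r (0.019, 0.15 and 0.14), Mmp9 (0.16, 0.29 and 0.33) and Tnfrsf11a (0.075, 0.20 and 0.11), and for Cox5b with the latter pair (0.012 and 0.054). Differences near 0 turned when 1 control library was left out, over ranges of −0.041 to 0.20 for Calcr, −0.036 to 0.040 for Itgb3, −0.13 to 0.0040 for Mmp9 and −0.062 to 0.067 for Ocstamp. The edgeR test on recovered reads was not run, since the deposited unit is FPKM. Depth limits genes such as Ifnb1, with at most 49 reads in a control library.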

Other observations

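Xist, which was left out of the comparison as an X-linked gene, was 53.2 to 56.1 FPKM in female controls and 31.4 to 37.4 FPKM in female knockouts. The windows of macrophage markers held the interferon element in 1 of 27 (3.7%), against 3.4% of those of all tested autosomal genes, and the windows of class I presentation genes in 4 of 19 (21.1%).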
